A study of Mus musculus with 8 samples.

Results

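Translation factors are the proteins that start and drive protein synthesis on the ribosome, and their mRNAs were followed here in the muscle stem cells known as satellite cells. The members were all gene symbols that begin with Eif1 to Eif6 or with Eef1 or Eef2, except the Eif2ak kinases. The rule found 60 of the 24328 gene symbols in the table, and it used no measured value. Of these, 58 reached 1 FPKM (fragments per length of transcript and depth of library) in at least 2 libraries and were tested. The 2 others were Eef1a2, listed at 0.0310 FPKM in 1 PBS-perfused library and at 0 in the other 7, and Eif4e1b, listed at 0 in all 8.

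RNA had been sequenced in 8 libraries, 2 for each of 4 groups, from C57BL/6 mice of 2 months. PFA-perfused cells came from mice that carry Pax7-nGFP, a nuclear green reporter of the satellite cell gene Pax7, and that were perfused with the fixative paraformaldehyde ahead of tissue dissociation. The PBS-perfused group used Pax7-nGFP mice given buffer alone. Unperfused cells came from wild type mice with no perfusion, and injury-activated cells from wild type mice, also not perfused, 2.5 days after muscle injury. The sort kept Vcam-positive cells that lacked CD31, CD45 and Sca-1. Fixed cells were digested with more collagenase and a kit made for paraffin blocks gave their RNA, so fixation, digestion and kit differ together between PFA-perfused and all other cells, and genotype differs as well from the unperfused and injury-activated cells. Genotype and perfusion also differ together between PBS-perfused cells and the unperfused and injury-activated cells. Within each of these comparisons such differences cannot be told apart. Whether both libraries within a group stem from different animals is not in the labels. The p-values thus describe the spread among these libraries, which may be technical.

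In textbook outline, eIF4E binds the cap of an mRNA and eIF4G joins it to the helicase eIF4A, which opens the leader. eIF2 brings the initiator tRNA, eIF1 and eIF1A guide scanning for the start codon, eIF3 is the large scaffold on the small ribosomal subunit, and eIF5 and eIF5B end the process with subunit joining. eEF1A then delivers aminoacyl-tRNA, its exchange factor eEF1B recharges it, and eEF2 moves the ribosome along. Resting satellite cells are known for low protein synthesis, held down in part by phosphorylation of eIF2, and protein synthesis rises when they activate. An mRNA level does not show phosphorylation or the rate of protein synthesis.

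FPKM summed to between 461454 and 582336 per library. Counts of reads did not enter, and the depth of each value is unknown. Rn45s, the ribosomal RNA precursor, held 9.80 and 19.4% of each fixed library's FPKM, 0.893 and 6.64% after PBS perfusion and at most 0.363% in the other 4 libraries; its part in the differences was not tested. Fold changes are given on 2 scales: as log2 differences of the deposited FPKM + 1 (± SE, n = 2 libraries per group), and after scaling by the trimmed mean of ratios. Over the 12515 genes tested, the median difference from PFA-perfused cells was -0.50 in PBS-perfused, -0.81 in unperfused and -0.48 in injury-activated cells as deposited, and -0.01, 0.05 and 0.11 once scaled. The median was -0.36 as deposited and 0.00 scaled for unperfused against PBS-perfused cells, and 0.17 and -0.06 for injury-activated against unperfused cells. The 8 satellite cell markers summed to 1320 to 1334 FPKM in PFA-perfused and 792 to 1004 in PBS-perfused cells. Their sum was 1806 to 3035 in unperfused and 542 to 560.0 in injury-activated cells. The markers did not move together. Against PFA-perfused cells, as deposited, 1 was higher and 3 lower in PBS-perfused, 3 and 3 in unperfused and 2 and 5 in injury-activated cells. Of all tested genes 17.8 and 46.2%, 17.4 and 56.3%, and 26.1 and 47.3% were called higher and lower in these comparisons. Myf5 stood at 311 and 229 FPKM in PFA-perfused and at 1261 and 2598 FPKM in unperfused cells, whereas Pax7 stood at 328 and 567 FPKM in PFA-perfused, 48.3 and 79.6 in PBS-perfused, 19.8 and 20.4 in unperfused and 4.59 and 4.40 in injury-activated cells. The summed level of the 6 endothelial markers was 83.1 to 123 FPKM in PBS-perfused cells and between 1.84 and 9.20 elsewhere, with none at 0 in both libraries of a group. The 5 cycling markers summed to 651 to 690 FPKM in injury-activated and 5.54 to 19.2 FPKM in the other cells. The 6 myofibre markers summed to 155 to 197 FPKM in injury-activated cells and 17.7 to 44.4 elsewhere. The 6 haematopoietic markers summed to 61.2 to 68.1 FPKM in injury-activated and 41.5 to 44.0 in PBS-perfused cells. Their sum was 26.7 to 37.8 in unperfused and 7.16 to 7.26 in PFA-perfused cells. Of these lists 3 myofibre and 4 haematopoietic markers passed the filter, and all markers of the other lists. After injury the myofibre sum was mostly Acta1 (133 and 93.9 FPKM) and Tnnt3 (60.2 and 58.6). The haematopoietic sum after injury was mostly Lyz2 (42.9 and 44.0 FPKM). By count 3 haematopoietic markers were higher and 1 lower in injury-activated than in unperfused cells, beside 40.8 and 29.3% of all genes. The lower marker, Cd68, stood at 32.1 and 22.98 FPKM in unperfused and 8.46 and 11.5 in injury-activated cells. In injury-activated and also in PBS-perfused cells all 4 tested markers were higher than in PFA-perfused cells, on both scales. Of all genes 26.1 and 17.8% were higher there as deposited, and 39.7 and 28.9% after scaling. In unperfused cells 1 was higher and 1 lower than in PFA-perfused cells (3 and 1 scaled). The 6 fibro-adipogenic markers summed to 59.5 to 67.1 FPKM in injury-activated and 158 to 650.4 FPKM in the other cells, a sum made up mostly of Dpt in the PFA-perfused and unperfused libraries. By count the list ran the other way. In injury-activated cells 4 of 6 markers were higher and 1 lower than in PFA-perfused and also than in unperfused cells. Beside them stood 26.1 and 47.3% of all genes against PFA-perfused and 40.8 and 29.3% against unperfused cells. In PBS-perfused cells 5 were higher and 1 lower than in PFA-perfused cells, beside 17.8 and 46.2% of all genes. The part of these cells in the results below was not tested, and in such bulk samples fewer cells of a type and less RNA per cell cannot be told apart.

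The members as a whole took 1.65 and 1.64% of all FPKM in PFA-perfused, 1.64 and 1.63% in PBS-perfused, 1.77 and 1.36% in unperfused and 2.75 and 2.79% in injury-activated libraries. Injury-activated cells had the highest mean for 28 of the 58 tested members (48.3%, against 28.9% of all tested genes), and unperfused cells had the lowest for 29 (50%, against 37.7%). After scaling, injury-activated cells were still highest for 33 members (56.9%, against 34.7% of all genes), but the lowest group was PFA-perfused for 26 members (44.8%, against 27.2%) and unperfused for 14 (24.1%, near the 21.7% of all genes). Eef1a1 alone made up between 18.9 and 41.5% of the members' summed FPKM.

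Injury-activated cells were compared with unperfused cells, both wild type and without fixation, to describe activation after injury. Of 58 members 33 were called higher (adjusted p under 0.05 in limma) and 8 lower, while 40.8% of all tested genes were called higher and 29.3% lower. The members' median was 1.19 on the log2 scale. After scaling 32 members were higher and 16 lower, beside 36.2 and 36.8% of all genes, with a median of 0.81. Against PFA-perfused cells, 30 members were higher and 17 lower in injury-activated cells, beside 26.1 and 47.3% of all genes (median 0.84). After scaling these numbers were 37 and 5, beside 39.7 and 33.1% (median 1.60). Both comparisons use the same injury-activated libraries.

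Cells without injury were then compared with each other. In PBS-perfused against PFA-perfused cells 14 members were called higher and 16 lower, beside 17.8 and 46.2% of all genes (median -0.22). After scaling 25 were higher and 6 lower, beside 28.9 and 25.6% (median 0.41). Without PFA-perfused replicate 1 the count of lower members was 7, and without PFA-perfused replicate 2 or PBS-perfused replicate 1 it was 9. It was 10 without either injury-activated library, which enter this comparison only through the shared spread. In unperfused against PFA-perfused cells 13 were higher and 29 lower, beside 17.4 and 56.3% (median -0.65). After scaling 28 were higher and 10 lower, beside 36.0 and 31.9% (median 0.49). In unperfused against PBS-perfused cells 5 were higher and 23 lower, beside 13.1 and 36.5% (median -0.61), and after scaling 15 and 12, beside 24.5 and 22.9% (median -0.06). The 23 fell to 14 without unperfused replicate 2, and the 17 members called lower in injury-activated against PFA-perfused cells fell to 11 without either injury-activated library. For the members the unperfused libraries differed most among themselves: 49 of 58 were higher in replicate 1, by a median of 0.47. The median over all genes was 0.15. Over all genes the PBS-perfused libraries differed most, by a median absolute difference of 0.295 against 0.266 in unperfused cells.

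**Figure D1:**
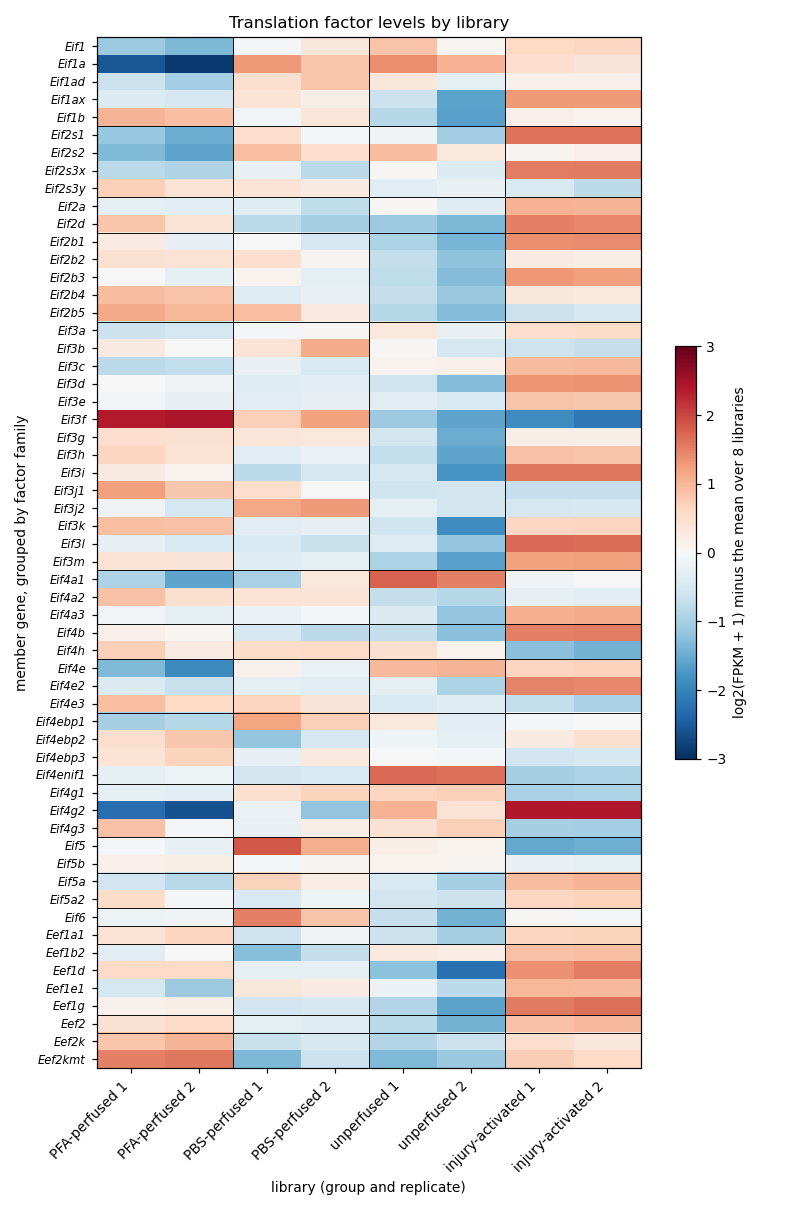
Levels of the 58 tested translation factors, as log2(FPKM + 1) minus the mean over 8 libraries, in rows grouped by factor family and in columns by library. Red is above and blue below a gene's own mean; Eif1a and Eif4g2 are lowest in the PFA-perfused columns, Eif3f is highest there, and most rows are red in the injury-activated columns.

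**Figure D2:**
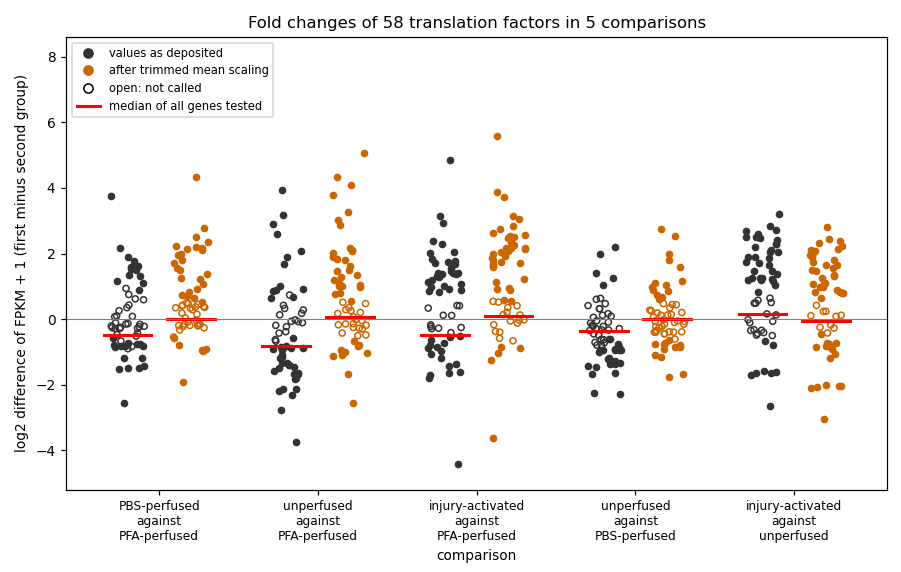
Each point is 1 of 58 translation factors in 1 of 5 comparisons, as the log2 difference of FPKM + 1, with deposited values in black and values after trimmed mean scaling in orange. Filled points are called in limma, and red lines give the median of all tested genes, which lies near 0 only after scaling.

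Eif4e, Eif4a1 and Eif4g1 of the cap-binding complex were all called higher in unperfused than in PFA-perfused cells, on both scales. Eif4e, the cap-binding subunit, stood at 57.5 and 38.2 FPKM in PFA-perfused, 159 and 127 in PBS-perfused, 286 and 296 in unperfused and 231 and 235 in injury-activated cells. The PFA-perfused libraries were lowest and no library of the other groups overlapped them. Eif4e was higher than in PFA-perfused cells by 1.58 ± 0.26 in PBS-perfused cells (adjusted p = 0.00081), 2.61 ± 0.26 in unperfused cells (adjusted p = 2.3e-05) and 2.29 ± 0.26 in injury-activated cells (adjusted p = 4.8e-05), and by 2.20, 3.80 and 3.07 after scaling. The 3 comparisons share the PFA-perfused libraries. Eif4e3, an atypical cap-binding relative, stood at 35.3 and 28.4 FPKM in PFA-perfused, 29.4 and 24.4 in PBS-perfused, 13.1 and 14.0 in unperfused and 10.6 and 8.96 in injury-activated cells. It was lower in injury-activated than in PFA-perfused cells (-1.60 ± 0.21; -0.84 scaled). Eif4e2, known as a cap-binding repressor, stood at 11.7 and 9.90 FPKM in PFA-perfused, 13.3 and 12.8 in PBS-perfused, 13.0 and 7.87 in unperfused and 47.3 and 46.1 in injury-activated cells. Its 6 libraries without injury lay between 7.87 and 13.3 FPKM, although after scaling it was called higher in PBS-perfused (0.83) and unperfused (1.01) than in PFA-perfused cells. It rose after injury by 2.02 ± 0.24 over PFA-perfused cells (2.75 scaled). The share of Eif4e in the summed FPKM of these 3 genes, which no scaling between libraries can change, was 55.1 and 49.9% in PFA-perfused, 78.9 and 77.4% in PBS-perfused, 91.6 and 93.1% in unperfused and 79.9 and 81.0% in injury-activated libraries.

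The helicase paralogues moved in opposite directions between unperfused and PBS-perfused cells. Eif4a1 stood at 169.8 and 107 FPKM in PFA-perfused, 165 and 407 in PBS-perfused, 1109 and 936 in unperfused and 301 and 324 in injury-activated cells. Both unperfused libraries were above all others, and the PBS-perfused libraries differed widely from each other. Eif4a1 was higher in unperfused than in PFA-perfused cells by 2.91 ± 0.42 (adjusted p = 0.0002; 4.10 scaled) and than in PBS-perfused cells by 1.97 ± 0.42 (adjusted p = 0.0041; 2.54 scaled), and lower in injury-activated than in unperfused cells (-1.70 ± 0.42; -2.11 scaled). Eif4a2, the paralogue with a nearly identical protein, stood at 152 and 115 FPKM in PFA-perfused, 111 and 109 in PBS-perfused, 49.7 and 44.8 in unperfused and 69.2 and 65.4 in injury-activated cells. It was lower in unperfused than in PBS-perfused cells (-1.21 ± 0.22, adjusted p = 0.002; -0.65 scaled), and also lower than in PFA-perfused cells (-1.46 ± 0.22), a difference that was not called after scaling (-0.27). The share of Eif4a1 in the pair was 52.8 and 48.3% in PFA-perfused, 59.8 and 78.8% in PBS-perfused, 95.7 and 95.4% in unperfused and 81.3 and 83.2% in injury-activated libraries. Eif4a3, a helicase of the exon junction complex, was highest after injury, at 237 and 245 FPKM against 49.0 to 110.2 FPKM elsewhere (1.27 ± 0.28 over PFA-perfused cells; 2.06 scaled).

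The cofactors of the helicase also parted. Eif4b stood at 66.4 and 62.2 FPKM in PFA-perfused, 41.7 and 33.8 in PBS-perfused, 35.5 and 24.1 in unperfused and 172 and 173 in injury-activated cells. The injury-activated libraries were above all others (2.52 ± 0.24 over unperfused cells, adjusted p = 1.8e-05; 2.12 scaled). Eif4h, which like eIF4B stimulates the helicase, was at 125 to 191 FPKM in the 6 libraries without injury and at 48.1 and 43.1 FPKM after it. It was lower in injury-activated than in unperfused cells (-1.62 ± 0.25; -2.03 scaled).

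The scaffold genes held the largest rise of any tested member. Eif4g2, a relative of eIF4G that lacks the site for eIF4E and serves initiation without it, stood at 19.4 and 15.2 FPKM in PFA-perfused, 86.7 and 42.6 in PBS-perfused, 202 and 133 in unperfused and 520.2 and 522 in injury-activated cells. The groups did not overlap, and the order was PFA-perfused, PBS-perfused, unperfused, injury-activated. Eif4g2 rose in injury-activated cells by 4.84 ± 0.35 over PFA-perfused (adjusted p = 3.1e-06; 5.60 scaled) and by 1.66 ± 0.35 over unperfused cells (adjusted p = 0.0022; 1.26 scaled). It was already higher in PBS-perfused (1.77 ± 0.35; 2.36 scaled) and unperfused cells (3.18 ± 0.35; 4.34 scaled) than in PFA-perfused cells. Eif4g1, the main scaffold that does bind eIF4E, stood at 31.1 and 30.6 FPKM in PFA-perfused, 54.2 and 61.6 in PBS-perfused, 61.1 and 64.4 in unperfused and 19.1 and 19.8 in injury-activated cells. It was lower after injury than in unperfused cells (-1.64 ± 0.19, adjusted p = 6.1e-05; -2.05 scaled) and higher in unperfused than in PFA-perfused cells (1.00 ± 0.19; 2.17 scaled). Its PBS-perfused and unperfused libraries overlapped. Eif4g3, another scaffold of the same type, stood at 43.7 and 22.99 FPKM in PFA-perfused, 20.0 and 27.2 in PBS-perfused, 32.7 and 39.4 in unperfused and 11.2 and 11.1 in injury-activated cells and was lower after injury as well (-1.60 ± 0.30 against unperfused cells; -2.01 scaled). The share of Eif4g2 in the summed FPKM of the 3 scaffolds was 20.6 and 22.1% in PFA-perfused, 53.9 and 32.4% in PBS-perfused, 68.3 and 56.2% in unperfused and 94.5 and 94.4% in injury-activated libraries.

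**Figure D3:**
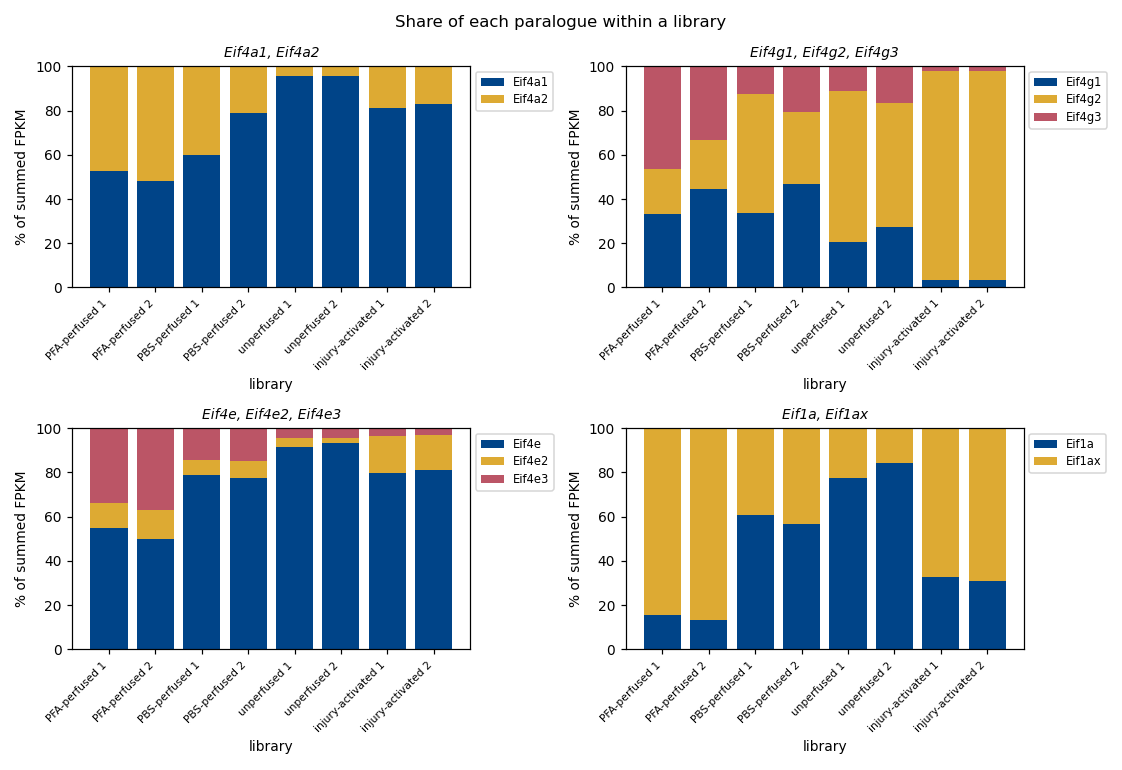
Share of each paralogue in the summed FPKM of its small family, in percent, 1 bar per library and 1 panel per family. Eif4a1 reaches 95.7 and 95.4% in the unperfused bars, Eif4g2 94.5 and 94.4% in the injury-activated bars, and Eif1a 13.3 to 15.4% in the PFA-perfused bars.

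Promoter sequences are shown for Eif4e, Eif4a1 and Eif4g1, whose means were all highest in unperfused cells, and for Eif4a2 and Eif3f, whose means were highest in PFA-perfused cells on the deposited scale (after scaling, PBS-perfused cells were highest for Eif4a2). They run from 250 bases before to 30 bases after the RefSeq start (GRCm38.p6, a later build than the mm9 of the deposited values), 5′ to 3′ on the strand of the gene, with the motif CACGTG in capitals. CACGTG is the E-box bound by Myc with Max and by other factors of that family, and it reads the same on both strands. The windows lie at chr3:138527018-138527297 (plus strand), chr11:69672394-69672673 (minus strand), chr16:20672477-20672756 (plus strand), chr16:23107218-23107497 (plus strand) and chr7:108934165-108934444 (plus strand).
Eif4e: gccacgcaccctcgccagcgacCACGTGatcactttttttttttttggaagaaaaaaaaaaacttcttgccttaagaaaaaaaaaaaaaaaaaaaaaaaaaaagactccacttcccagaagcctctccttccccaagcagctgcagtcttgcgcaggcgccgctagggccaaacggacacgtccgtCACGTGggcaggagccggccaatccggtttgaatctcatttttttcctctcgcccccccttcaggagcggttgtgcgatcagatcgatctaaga
Eif4a1: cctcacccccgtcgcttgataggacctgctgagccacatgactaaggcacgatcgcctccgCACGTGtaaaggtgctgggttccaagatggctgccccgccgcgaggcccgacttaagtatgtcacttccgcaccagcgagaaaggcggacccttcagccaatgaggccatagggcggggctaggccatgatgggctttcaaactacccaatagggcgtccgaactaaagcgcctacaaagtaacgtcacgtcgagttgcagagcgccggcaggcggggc
Eif4g1: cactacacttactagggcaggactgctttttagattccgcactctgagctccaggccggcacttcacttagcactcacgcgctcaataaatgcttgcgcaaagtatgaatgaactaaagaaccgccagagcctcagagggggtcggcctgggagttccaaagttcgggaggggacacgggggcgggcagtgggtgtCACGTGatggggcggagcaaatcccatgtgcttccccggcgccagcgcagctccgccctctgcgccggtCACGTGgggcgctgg
Eif4a2: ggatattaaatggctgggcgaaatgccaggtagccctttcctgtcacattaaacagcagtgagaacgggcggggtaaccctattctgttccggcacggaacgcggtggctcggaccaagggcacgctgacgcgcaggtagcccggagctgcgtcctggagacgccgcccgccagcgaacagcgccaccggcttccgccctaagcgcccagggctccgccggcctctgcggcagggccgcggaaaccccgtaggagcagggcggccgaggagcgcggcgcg
Eif3f: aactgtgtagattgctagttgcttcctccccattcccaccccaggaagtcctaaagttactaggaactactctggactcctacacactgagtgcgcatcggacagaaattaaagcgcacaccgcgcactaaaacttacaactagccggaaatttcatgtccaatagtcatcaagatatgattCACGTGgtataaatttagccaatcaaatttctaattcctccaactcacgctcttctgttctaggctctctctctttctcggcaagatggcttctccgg
Counted from the start, the first base of the motif lies at -228 and -64 in Eif4e, -189 in Eif4a1, -54 and 16 in Eif4g1, and -68 in Eif3f. Of 2 windows listed for Eif4e, the 1 with the motif is shown. The promoter of Eif4a2 holds none in this window. Among 60 members, 46 matched the RefSeq table by symbol, and in windows from 250 bases before to 50 after the start 12 of the 46 (26.1%) held CACGTG, against 2187 of 27025 genes (8.10%). The other 8 were Eef2, Eef2k, Eif1b, Eif3a, Eif3k, Eif4h, Eif5a and Eif5a2, genes whose levels moved in different directions. The AP-1 motif TGAGTCA, searched on both strands, was in 3 of 46 (6.5%) against 5.9% of genes. The members' windows were richer in G and C, at a median of 62.5% against 52.7% for all windows, and the part of base composition in the motif counts was not tested. A match is a description of the letters and does not show that a factor binds there.

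Proteins that hold eIF4E back were followed next. Eif4ebp1, a repressor released from eIF4E when mTORC1 phosphorylates it, stood at 72.8 and 79.7 FPKM in PFA-perfused, 331 and 242 in PBS-perfused, 182 and 117 in unperfused and 143 and 145 in injury-activated cells. PBS-perfused libraries were highest and PFA-perfused lowest (1.88 ± 0.28, adjusted p = 0.00045; 2.51 scaled). Its relative Eif4ebp2 showed the reverse order of these groups at low levels on the deposited scale. It stood at 8.07 and 10.1 FPKM in PFA-perfused, 1.81 and 3.48 in PBS-perfused, 4.76 and 4.23 in unperfused and 6.63 and 7.76 in injury-activated cells. Eif4ebp2 was lower in PBS-perfused than in PFA-perfused cells (-1.50 ± 0.25, and -0.93 scaled). After scaling unperfused (0.17) and injury-activated cells (0.41) stood above PFA-perfused cells, neither of them called. Eif4ebp3 lay between 3.34 and 9.12 FPKM in all libraries. Eif4ebp1 made up 80.6 to 98.2% of the 3 genes in every library. Eif4enif1, which encodes the shuttling protein 4E-T that carries eIF4E to the nucleus and to processing bodies, stood at 9.74 and 10.9 FPKM in PFA-perfused, 8.06 and 8.55 in PBS-perfused, 42.2 and 40.7 in unperfused and 5.63 and 5.96 in injury-activated cells. The unperfused libraries lay above all others without overlap, by 1.91 ± 0.18 against PFA-perfused (adjusted p = 1.8e-05; 3.03 scaled) and 2.19 ± 0.18 against PBS-perfused cells (adjusted p = 2.4e-05; 2.74 scaled). Injury-activated cells were lower than unperfused cells (-2.64 ± 0.18, adjusted p = 3.2e-06; -3.06 scaled).

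The scanning factors were led by Eif1a. It stood at 17.2 and 13.7 FPKM in PFA-perfused, 259 and 188 in PBS-perfused, 278 and 221 in unperfused and 149 and 138 in injury-activated cells. Both PFA-perfused libraries lay far below the other 6, and injury-activated cells lay below the other unfixed cells. Against PFA-perfused cells Eif1a was higher by 3.76 ± 0.26 in PBS-perfused (adjusted p = 1.4e-05; 4.35 scaled), 3.93 ± 0.26 in unperfused (adjusted p = 2.5e-06; 5.08 scaled) and 3.14 ± 0.26 in injury-activated cells (adjusted p = 5.8e-06; 3.89 scaled). Its X-linked copy Eif1ax, which encodes the same factor, stood at 94.6 and 89.3 FPKM in PFA-perfused, 168 and 143 in PBS-perfused, 80.1 and 40.8 in unperfused and 309.8 and 309 in injury-activated cells. Eif1ax was highest after injury, by 2.41 ± 0.31 over unperfused cells (adjusted p = 0.00011; 2.02 scaled), and unperfused cells were below PBS-perfused cells (-1.42 ± 0.31; -0.87 scaled). The share of Eif1a in the summed FPKM of both copies was 15.4 and 13.3% in PFA-perfused, 60.7 and 56.7% in PBS-perfused, 77.6 and 84.4% in unperfused and 32.5 and 30.9% in injury-activated libraries. The copies are alike in sequence, and reads that fit both could have been divided between them.

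Eif1, which keeps the scanning ribosome from stopping at wrong codons, stood at 271 and 225 FPKM in PFA-perfused, 548 and 731 in PBS-perfused, 1045 and 596 in unperfused and 876 and 885 in injury-activated cells. It was higher than in PFA-perfused cells in unperfused (1.67 ± 0.34; 2.87 scaled) and injury-activated cells (1.83 ± 0.34; 2.62 scaled), and the libraries of these 2 groups overlapped. Its paralogue Eif1b stood at 82.5 and 75.6 FPKM in PFA-perfused, 37.8 and 51.7 in PBS-perfused, 21.7 and 12.2 in unperfused and 44.3 and 43.0 in injury-activated cells, highest in PFA-perfused and lowest in unperfused cells (-2.21 ± 0.28, adjusted p = 9.9e-05; -1.04 scaled). Eif1ad, a protein with an eIF1A-like domain, lay at 23.5 and 30.7 FPKM in PFA-perfused and between 40.0 and 87.0 FPKM in all other libraries.

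Of the genes of eIF2, which carries the initiator tRNA, all but Eif2s3y were lowest in PFA-perfused cells. Eif2s1, the alpha subunit that stress kinases phosphorylate, stood at 32.4 and 25.3 FPKM in PFA-perfused, 105 and 70.6 in PBS-perfused, 67.6 and 34.5 in unperfused and 227 and 226 in injury-activated cells. Injury-activated libraries were highest and near each other. The rise over PFA-perfused cells was 1.56 ± 0.34 in PBS-perfused (adjusted p = 0.0033; 2.17 scaled) and 2.94 ± 0.34 in injury-activated cells (adjusted p = 4.6e-05; 3.71 scaled). Eif2s2, the beta subunit, stood at 68.7 and 56.7 FPKM in PFA-perfused, 325 and 247 in PBS-perfused, 331 and 213 in unperfused and 183 and 191 in injury-activated cells, so that its highest libraries were unfixed cells without injury (2.16 ± 0.29 for PBS-perfused and 2.07 ± 0.29 for unperfused against PFA-perfused cells; 2.79 and 3.26 scaled). The gamma subunit has an X-linked and a Y-linked gene of near-identical sequence. Eif2s3x stood at 13.1 and 12.3 FPKM in PFA-perfused, 20.3 and 13.3 in PBS-perfused, 24.3 and 17.7 in unperfused and 70.5 and 71.7 in injury-activated cells and rose after injury (2.40 ± 0.25 over PFA-perfused cells; 3.13 scaled). Eif2s3y stood at 76.7 and 62.3 FPKM in PFA-perfused, 62.5 and 56.1 in PBS-perfused, 36.8 and 39.9 in unperfused and 33.8 and 26.5 in injury-activated cells. The order of its group means was the reverse of that of Eif2s3x, and after scaling the PFA-perfused mean was below those of PBS-perfused (0.41) and unperfused cells (0.35), neither of them called. The share of Eif2s3x in the pair was 14.6 and 16.5% in PFA-perfused, 24.5 and 19.2% in PBS-perfused, 39.7 and 30.7% in unperfused and 67.6 and 73.0% in injury-activated libraries; reads that fit both genes could have been divided between them, and the sex of the mice is not part of the labels used here.

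The complex eIF2B, which recharges eIF2 with GTP, had 5 subunits with unlike changes. All 5 were called lower in unperfused than in PFA-perfused cells (-2.14 to -0.88), where 56.3% of all genes were, and 2 of them after scaling, where 31.9% of all genes were. Against unperfused cells 4 of 5 were called higher after injury on both scales, beside 40.8 and 36.2% of all genes. Eif2b1, a regulatory subunit, stood at 33.6 and 23.7 FPKM in PFA-perfused, 28.4 and 19.5 in PBS-perfused, 14.1 and 10.03 in unperfused and 76.1 and 77.2 in injury-activated cells. It was highest after injury (2.59 ± 0.27 over unperfused cells, adjusted p = 2.9e-05; 2.22 scaled). Eif2b5, the catalytic subunit, stood at 45.8 and 40.9 FPKM in PFA-perfused, 38.3 and 24.9 in PBS-perfused, 10.8 and 7.58 in unperfused and 12.5 and 13.7 in injury-activated cells. It was lower after injury than in PFA-perfused cells (-1.65 ± 0.26, adjusted p = 0.00032; -0.88 scaled) and lower in unperfused than in PBS-perfused cells (-1.67 ± 0.26; -1.15 scaled). Within a library the highest subunit stood 2.35 to 3.79 times above the lowest in the 6 libraries without injury and 6.11 and 5.63 times above it after injury. Eif2a and Eif2d, which can deliver initiator tRNA without eIF2, were both higher after injury than in unperfused cells. Eif2d stood at 17.3 and 12.7 FPKM in PFA-perfused, 4.99 and 4.13 in PBS-perfused, 3.81 and 3.05 in unperfused and 28.1 and 26.7 in injury-activated cells. The injury-activated libraries were above all others (2.68 ± 0.22; 2.38 scaled).

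Of the 14 eIF3 genes, 9 were called higher and 1 lower in injury-activated than in unperfused cells (64.3 and 7.14%, beside 40.8 and 29.3% of all genes; 8 and 3 after scaling), and 7 higher and 3 lower than in PFA-perfused cells (50 and 21.4%, beside 26.1 and 47.3%; 9 and 2 after scaling). After scaling 36.2 and 36.8%, and 39.7 and 33.1%, of all genes were called higher and lower in these comparisons. The family medians of these comparisons were 1.23 and 0.58 on the log2 scale (0.82 and 1.37 scaled). In unperfused cells no subunit was called higher and 7 were called lower than in PBS-perfused cells (50%, beside 36.5% of all genes; 2 and 4 scaled). In PBS-perfused against PFA-perfused cells 1 was higher and 5 lower (7.14 and 35.7%, beside 17.8 and 46.2%; 5 and 1 scaled). In unperfused against PFA-perfused cells 2 were higher and 8 lower (6 and 3 scaled), shares of 14.3 and 57.1% near the 17.4 and 56.3% of all genes. The scaled shares of all genes were 24.5 and 22.9% for unperfused against PBS-perfused cells. Against PFA-perfused cells they were 28.9 and 25.6% for PBS-perfused and 36.0 and 31.9% for unperfused cells. Eif3l stood at 107 and 90.8 FPKM in PFA-perfused, 92.1 and 78.5 in PBS-perfused, 96.0 and 55.5 in unperfused and 410.3 and 407 in injury-activated cells, and its injury-activated libraries were above all others (2.04 ± 0.29 over PFA-perfused cells, adjusted p = 0.00017; 2.83 scaled). Eif3i stood at 153 and 135 FPKM in PFA-perfused, 72.1 and 88.9 in PBS-perfused, 87.8 and 36.3 in unperfused and 379.6 and 376 in injury-activated cells and rose after injury over unperfused cells (2.72 ± 0.37, adjusted p = 0.00015; 2.32 scaled). Eif3m stood at 166 and 163 FPKM in PFA-perfused, 97.6 and 101 in PBS-perfused, 64.8 and 39.9 in unperfused and 292 and 294 in injury-activated cells and rose in the same comparison (2.50 ± 0.26, adjusted p = 3.1e-05; 2.10 scaled). Eif3a, the largest subunit and the one that holds the complex together, stood at 63.9 and 69.5 FPKM in PFA-perfused, 98.6 and 103 in PBS-perfused, 126 and 87.0 in unperfused and 146 and 149 in injury-activated cells. It was higher after injury than in PFA-perfused cells (1.13 ± 0.24, and 1.92 scaled). Unperfused cells without injury were called higher than PFA-perfused cells as well (0.64 ± 0.24, and 1.83 scaled).

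Eif3f stood apart from most of this family. This subunit is known in muscle as a target of the ubiquitin ligase atrogin-1. It stood at 245 and 255 FPKM in PFA-perfused, 77.5 and 109 in PBS-perfused, 21.4 and 14.9 in unperfused and 11.8 and 9.83 in injury-activated cells. The groups did not overlap, and their order, from PFA-perfused down to injury-activated cells, was the reverse of that of Eif4g2. Eif3f was lower than in PFA-perfused cells in PBS-perfused (-1.44 ± 0.26, adjusted p = 0.0012; -0.80 scaled), unperfused (-3.74 ± 0.26, adjusted p = 3.2e-06; -2.56 scaled) and injury-activated cells (-4.41 ± 0.26, adjusted p = 9.8e-07; -3.63 scaled). Among the 12 subunits without Eif3j1 and Eif3j2, the highest stood 6.19 and 7.30 times above the lowest in PFA-perfused, 3.69 and 2.44 times in PBS-perfused, 8.16 and 10.7 times in unperfused and 34.7 and 41.4 times in injury-activated libraries. Eif3f was the lowest of the 12 in all 4 unperfused and injury-activated libraries. Eif3b, which was the lowest in both PFA-perfused libraries, stood at 26.0 and 24.8 FPKM after injury. Eif3j2 stood at 21.2 and 15.4 FPKM in PFA-perfused, 52.3 and 56.5 in PBS-perfused, 18.2 and 15.3 in unperfused and 15.8 and 16.0 in injury-activated cells. It was highest in PBS-perfused cells, and lower in unperfused cells (-1.64 ± 0.22; -1.10 scaled). Its near-identical copy Eif3j1 was at most 2.93 FPKM, and reads could have been divided between them. At these low levels Eif3j1 had the group order of Eif3f, with means of 2.42, 1.05, 0.12 and 0.04 FPKM.

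**Figure D4:**
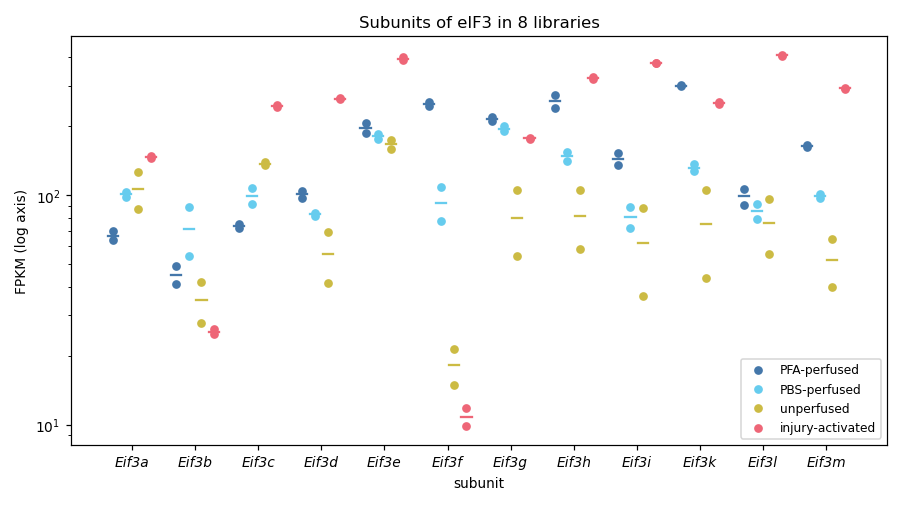
FPKM on a log axis of 12 eIF3 subunits, 2 points per group with a line at their mean. Injury-activated points lie highest for 8 of the subunits and lowest for Eif3b and Eif3f, and Eif3f falls from 245 and 255 FPKM in PFA-perfused to 11.8 and 9.83 FPKM in injury-activated cells.

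The late initiation factors had their own order. Eif5, which makes eIF2 hydrolyse its GTP at the start codon, stood at 95.1 and 83.3 FPKM in PFA-perfused, 358 and 209 in PBS-perfused, 111 and 105 in unperfused and 33.2 and 34.5 in injury-activated cells. PBS-perfused libraries were highest and injury-activated lowest, with no overlap of either with the rest. Eif5 was higher in PBS-perfused than in PFA-perfused cells (1.61 ± 0.28, adjusted p = 0.00096; 2.24 scaled) and lower in injury-activated than in unperfused cells (-1.65 ± 0.28, adjusted p = 0.00055; -2.06 scaled). Eif5b, the GTPase that joins the subunits, stood at 26.5 and 27.1 FPKM in PFA-perfused, 22.7 and 25.1 in PBS-perfused, 25.8 and 25.1 in unperfused and 20.2 and 19.5 in injury-activated cells, and on the deposited scale it was called in none of the 5 comparisons (smallest adjusted p = 0.070). After scaling it was called higher in unperfused than in both perfused groups and lower after injury than in unperfused cells. Eif6, which keeps the subunits apart, stood at 84.7 and 88.1 FPKM in PFA-perfused, 271 and 172 in PBS-perfused, 57.5 and 34.8 in unperfused and 97.0 and 89.9 in injury-activated cells. It was higher in PBS-perfused than in PFA-perfused cells (1.31 ± 0.30, adjusted p = 0.0048; 1.94 scaled) and lower in unperfused than in PBS-perfused cells (-2.24 ± 0.30, adjusted p = 0.00034; -1.69 scaled). Eif5a, the factor that carries hypusine and helps the ribosome through stalling sequences, stood at 418 and 349.5 FPKM in PFA-perfused, 992 and 731 in PBS-perfused, 451 and 313 in unperfused and 1188 and 1273 in injury-activated cells. It was higher after injury than in PFA-perfused cells (1.68 ± 0.31; 2.48 scaled). It made up at least 99.3% of the sum with its paralogue Eif5a2 in every library.

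The elongation factors were highest after injury and, except Eef1b2 and Eef1e1, lowest in unperfused cells on the deposited scale. After scaling the lowest mean of Eef1a1 was that of PBS-perfused cells. Eef1a1, the most abundant member, stood at 3417 and 3969.6 FPKM in PFA-perfused, 1643 and 2359.9 in PBS-perfused, 1624 and 1277 in unperfused and 3948 and 4036 in injury-activated cells. It was higher after injury than in unperfused cells (1.47 ± 0.36, adjusted p = 0.0052; 1.06 scaled), a call that was lost without the filter on low values. Its libraries after injury and in PFA-perfused cells overlapped. Eef1a1 has many processed pseudogenes, and reads of such copies could have been divided. Eef2 stood at 836 and 897 FPKM in PFA-perfused, 501 and 469 in PBS-perfused, 344 and 227 in unperfused and 1122 and 1189 in injury-activated cells and rose after injury over unperfused cells (2.05 ± 0.30, adjusted p = 0.00022; 1.64 scaled).

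The delta and gamma subunits of the exchange factor eEF1B rose with them. Eef1d, its delta subunit, stood at 117 and 119 FPKM in PFA-perfused, 64.2 and 65.4 in PBS-perfused, 33.0 and 15.9 in unperfused and 205 and 231 in injury-activated cells. It had the largest rise of any tested member in injury-activated against unperfused cells (3.19 ± 0.31, adjusted p = 2e-05; 2.81 scaled) and was lower in unperfused than in PFA-perfused cells (-2.32 ± 0.31; -1.14 scaled). Eef1g, the gamma subunit, stood at 381 and 392 FPKM in PFA-perfused, 234 and 252 in PBS-perfused, 189 and 114 in unperfused and 1038 and 1099 in injury-activated cells and rose by 2.85 ± 0.29 over unperfused cells (adjusted p = 2.7e-05; 2.45 scaled). Eef1b2, the catalytic beta subunit, differed from them: it stood at 122 and 149.5 FPKM in PFA-perfused, 62.3 and 92.2 in PBS-perfused, 187 and 176 in unperfused and 279.6 and 285 in injury-activated cells. It was higher in unperfused than in PBS-perfused cells (1.25 ± 0.26, adjusted p = 0.0037, and 1.81 scaled). Its difference of injury-activated from unperfused cells was not called on either scale (0.64 ± 0.26, and 0.23 scaled). Eef1e1, a subunit of the complex of tRNA synthetases, was highest after injury, at 108 and 105 FPKM against 24.7 to 68.4 FPKM elsewhere (1.78 ± 0.27 over PFA-perfused cells; 2.55 scaled).

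Enzymes that modify eEF2 were highest in PFA-perfused cells on the deposited scale; after scaling Eef2k was higher in injury-activated than in PFA-perfused cells by 0.14, which was not called. Eef2k, the kinase that blocks eEF2, stood at 5.17 and 6.03 FPKM in PFA-perfused, 1.18 and 1.49 in PBS-perfused, 0.889 and 1.22 in unperfused and 3.89 and 3.38 in injury-activated cells. It was lower in PBS-perfused (-1.50 ± 0.18, adjusted p = 0.00016; -0.97 scaled) and unperfused cells (-1.68 ± 0.18, adjusted p = 3.6e-05; -0.83 scaled). Eef2kmt, which methylates eEF2, stood at 33.6 and 35.2 FPKM in PFA-perfused, 3.76 and 6.68 in PBS-perfused, 3.84 and 4.53 in unperfused and 19.0 and 17.2 in injury-activated cells. It was lower in PBS-perfused (-2.55 ± 0.25, adjusted p = 5.9e-05, and -1.93 scaled) and unperfused cells (-2.77 ± 0.25, adjusted p = 1.2e-05, and -1.68 scaled). After injury Eef2kmt stood between them and the fixed cells as deposited. After scaling its difference of injury-activated from PFA-perfused cells was -0.12, which was not called.

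A list of 40 partners of these factors (regulators, release and recycling factors, modifying enzymes) was read beside them, and 39 passed the filter. In injury-activated against unperfused cells 16 were higher and 12 lower (41.0 and 30.8%, near the 40.8 and 29.3% of all genes; 15 and 17 scaled). In PBS-perfused against PFA-perfused cells 9 were higher and 13 lower (23.1 and 33.3%, beside 17.8 and 46.2%; 16 and 2 scaled). In unperfused against PFA-perfused cells 14 were higher and 17 lower (35.9 and 43.6%, beside 17.4 and 56.3%; 18 and 7 scaled). Injury-activated against PFA-perfused cells gave 11 and 11 (28.2% each, beside 26.1 and 47.3%), or 23 and 5 scaled. Unperfused against PBS-perfused cells gave 6 and 12 (15.4 and 30.8%, beside 13.1 and 36.5%), or 12 and 3 scaled. After scaling 36.2 and 36.8% of all genes were called in injury-activated against unperfused cells, and 24.5 and 22.9% in unperfused against PBS-perfused cells. Against PFA-perfused cells these shares were 28.9 and 25.6% (PBS-perfused), 36.0 and 31.9% (unperfused) and 39.7 and 33.1% (injury-activated). Ppp1r15a, the stress-induced subunit of the phosphatase that reverses phosphorylation of eIF2, stood at 22.9 and 17.5 FPKM in PFA-perfused, 1085 and 771 in PBS-perfused, 530.1 and 318 in unperfused and 63.1 and 59.9 in injury-activated cells. It was lower in PFA-perfused cells, with positive differences from them in PBS-perfused (5.45 ± 0.31, adjusted p = 7.2e-06; 6.05 scaled) and unperfused cells (4.29 ± 0.31, adjusted p = 4.1e-06; 5.46 scaled). Its constitutive relative Ppp1r15b and the stress gene Trib3 were likewise lower in PFA-perfused cells: PBS-perfused and unperfused cells stood above them by 2.49 ± 0.28 and 2.91 ± 0.28 for Ppp1r15b and by 3.34 ± 0.19 and 3.78 ± 0.19 for Trib3 (2.96, 3.93, 3.44 and 4.42 scaled). Ddit4 went the other way, at 14.4 and 4.12 FPKM in PFA-perfused and 5.32 and 7.95 in PBS-perfused cells. It stood at 0.20 and 0.40 FPKM in unperfused and 0.18 and 0.14 in injury-activated cells. Its differences from PFA-perfused cells were -2.78 ± 0.43 in unperfused and -2.94 ± 0.43 in injury-activated cells (-2.06 and -2.36 scaled), and PBS-perfused cells were not called. Larp1, a repressor of mRNAs with a terminal oligopyrimidine tract, which include those of several elongation factors, stood at 8.17 and 10.6 FPKM in PFA-perfused, 5.66 and 6.89 in PBS-perfused, 50.4 and 47.9 in unperfused and 37.7 and 40.4 in injury-activated cells. It was higher in unperfused than in PBS-perfused cells by 2.79 ± 0.21 (adjusted p = 1.4e-05; 3.34 scaled). After injury Abce1, which splits ribosomes for reuse, was higher than in PFA-perfused cells by 3.49 ± 0.36 and Cyfip1, a partner of eIF4E, by 3.13 ± 0.24 (4.28 and 3.86 scaled). Abce1 was also higher than there in PBS-perfused (1.54 ± 0.36) and unperfused cells (1.91 ± 0.36), without injury (2.17 and 3.11 scaled). Over unperfused cells the rise after injury was 1.58 ± 0.36 for Abce1 and 2.37 ± 0.24 for Cyfip1 (1.17 and 1.98 scaled).

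The library kit does not mark the strand, so reads of a member and of a gene on the opposite strand cannot be told apart where their exons overlap. In GENCODE M21 the overlap covered 43.3% of the exon bases of Eif3d, 19.0% of Eif3j1, 17.6% of Eef2kmt, 16.8% of Eif5b, 15.3% of Eif1ad, 12.7% of Eif1b and at most 7.8% of any other member. For Eef2kmt the 17.6% is the overlap with Alg1 alone, and Gm15983 overlapped 5.3%, counted on its own.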

How the data were processed

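RNA was measured in 8 libraries of sorted satellite cells. Per the submitters' processing notes STAR 2.5.3a, StringTie 1.3.3, R 3.4.1 and the build mm9 were used, with no roles given. The table deposited by the authors was read as FPKM per gene symbol, from its decimals and its unequal library sums, and the labels do not state the unit. No read counts were used, so depth and counting error are unknown, and the sums of FPKM per library are not depths. Levels were tested as log2(FPKM + 1) in limma 3.58.1 under R 4.3.3 with a mean-variance trend, over genes with at least 1 FPKM in at least 2 libraries, in 1 fit of all 8 libraries in 4 groups. Calls had a Benjamini-Hochberg adjusted p under 0.05 over all 12515 genes. The code was tested on simulated data.

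Alternatives were trimmed mean scaling, no filter, a pseudocount of 0.1, a replicate block and leaving out each library. All members may be named. Values in all 8 libraries were given for the 8 called members per comparison with the largest change (libraries not overlapping, higher mean 10 FPKM or more), and for paralogue pairs and a few core factors fixed by name. Members and lists were chosen with earlier results of these data known. Promoters came from RefSeq, of a later build than the values, and were matched by symbol.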

Additional observations from a re-analysis of the deposited data

How the results depend on the processing

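With trimmed mean scaling the members called were 25 higher and 6 lower for PBS-perfused against PFA-perfused, 28 and 10 for unperfused against PFA-perfused, 37 and 5 for injury-activated against PFA-perfused, 15 and 12 for unperfused against PBS-perfused, and 32 and 16 for injury-activated against unperfused cells. No member was called in opposite directions on the 2 scales, and 20 of 30, 23 of 42, 35 of 47, 17 of 28 and 40 of 41 calls were kept. Of the calls not kept, 7 members in unperfused and 3 in injury-activated against PFA-perfused cells changed sign without being called in the new direction. Without the filter on low values, 9 members were called lower in PBS-perfused than in PFA-perfused cells; the cause was not tested. Leaving out 1 library at a time gave 11 to 16 higher and 7 to 18 lower for PBS-perfused against PFA-perfused, 9 to 14 and 23 to 31 for unperfused against PFA-perfused, and 24 to 30 and 11 to 18 for injury-activated against PFA-perfused. It gave 4 to 5 and 14 to 31 for unperfused against PBS-perfused and 31 to 35 and 6 to 9 for injury-activated against unperfused cells. In these fits the lone library of a group is assumed to vary like the others. The alternatives were run for 66 fold changes of single members, which were not all of those printed. Eif4ebp2 and Eif2s3y in unperfused and Eef2k in injury-activated cells were not among them. These were called lower than in PFA-perfused cells as deposited (-0.87, -0.83 and -0.51) and lost that call after scaling. Among the 66, 2 lost their call under an alternative. Eef1a1 in injury-activated against unperfused cells was 1.47 and no longer called without the filter, and Eif4a2 in unperfused against PFA-perfused cells was -0.27 after scaling. Libraries of different groups share only a replicate number: the correlations of same-numbered libraries' deviations were -0.0467 to 0.117. With the replicate block 29 of 30, 42 of 42, 47 of 47, 28 of 28 and 41 of 41 calls were kept and 1, 1, 0, 3 and 1 were added. Where 2 libraries per group stand against 2, an exact permutation test of a single gene cannot go below 0.33, so no such test was used. Depth is unknown, and levels near 1 FPKM are the least certain.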
